A study of Mus musculus with 6 samples.

Results

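The integrated stress response and the unfolded protein response were followed here through 10 genes in BV2, a mouse cell line made by immortalising microglia (brain macrophages). The genes are Atf4, Ddit3, Xbp1, Trib3, Ppp1r15a, Asns, Chac1, Sesn2, Herpud1 and Edem1. They were chosen by symbol in the array's platform annotation, which writes them in capitals (ATF4, DDIT3, XBP1, TRIB3, PPP1R15A, ASNS, CHAC1, SESN2, HERPUD1 and EDEM1). Each of the 10 had exactly 1 probe, so the set is 10 of 26423 probes, or 10 of 17742 measured genes. RNA came from cells kept for 1 h without adenine or with adenine, one of the purine bases of nucleic acids, and each of 3 groups (untreated control, lower dose, higher dose) had 2 single-colour arrays. Titles and treatment protocol give the doses as 20 and 80 µM, whereas the characteristics of the samples give 80 and 250 µM. Both versions put the groups in the same order, and only that order is used. All groups were this 1 line under the same culture conditions, with no gene deletion or transgene named in the labels, and an immortal line is a limited model of microglia in tissue. The design text speaks of separate cultures, but no label ties an array to a culture, so the p-values measure the spread between these arrays, which may be technical.

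In the integrated stress response, kinases that sense amino acid shortage, double-stranded RNA, haem deficiency or misfolded protein phosphorylate the initiation factor eIF2. General translation then slows, while the mRNA of the transcription factor ATF4 is translated more, and ATF4 drives genes for amino acid supply and for its own feedback. In the unfolded protein response, the endoplasmic reticulum sensors PERK, IRE1 and ATF6 act through eIF2, through splicing of Xbp1 mRNA and through proteolytic release of ATF6, and raise chaperones and degradation factors. Much of the regulation of ATF4 and XBP1 lies in translation and splicing. An array probe reports total hybridised RNA and not those steps.

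The sequence before the start of 6 of the genes is shown because factors of both responses are known to bind elements near the starts of some of their target genes. Whether a match goes with a change in intensity was not tested. RefSeq windows (GRCm38.p6) of 300 bases, from 250 before to 50 after the start, matched all 10 members. In them 6 motifs were searched on both strands, with no mismatch allowed outside the positions of any base. The core TGATGNAA of the element bound by CCAAT/enhancer-binding proteins and ATF4 was found in 4 of the 10 windows (Asns, Chac1, Herpud1 and Trib3) and in 3.97% of all 32851 windows. The ER stress response element, CCAAT and CCACG with any 9 bases between them, was found in 0 member windows and 0.119% of all windows. Its second form, ATTGG and CCACG with any 1 base between them, was found in Herpud1 and in 0.0365% of all windows. The core TGACGTGG, named for the unfolded protein response, was found in 0 members and 0.676% of all windows. The cyclic AMP response element TGACGTCA was found in Ppp1r15a and in 1.79% of all. The plain CCAAT box, which overlaps both forms of the ER stress element, was found in 6 members and 37.4% of all windows. In the runs below, written 5′ to 3′ on the gene's strand and ending before the transcribed bases, capitals mark a match (the CCAAT box in Ddit3, in reverse; the TGATGNAA core in Asns, Chac1 and Herpud1, in reverse in the last 2; the second ER stress element in Herpud1; TGACGTCA in Ppp1r15a). Ddit3 and Xbp1 are the members that passed the test, and the other 4 hold a named element.
Ddit3, chr10:127290543-127290792, plus strand: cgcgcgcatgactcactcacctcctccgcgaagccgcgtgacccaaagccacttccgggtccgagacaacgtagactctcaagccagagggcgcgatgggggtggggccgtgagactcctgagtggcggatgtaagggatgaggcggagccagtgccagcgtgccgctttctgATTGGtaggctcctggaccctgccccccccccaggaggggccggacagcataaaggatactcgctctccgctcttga
Xbp1, chr11:5520391-5520640, plus strand: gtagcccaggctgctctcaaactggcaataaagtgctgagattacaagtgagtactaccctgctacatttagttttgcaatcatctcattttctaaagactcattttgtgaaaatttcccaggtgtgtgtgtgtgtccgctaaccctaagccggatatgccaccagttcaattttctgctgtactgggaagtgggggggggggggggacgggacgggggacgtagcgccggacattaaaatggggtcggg
Asns, chr6:7693210-7693269, minus strand: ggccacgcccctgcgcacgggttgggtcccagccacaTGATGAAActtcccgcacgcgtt
Chac1, chr2:119351018-119351077, plus strand: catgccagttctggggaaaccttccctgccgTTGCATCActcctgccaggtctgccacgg
Herpud1, chr8:94386299-94386398, plus strand: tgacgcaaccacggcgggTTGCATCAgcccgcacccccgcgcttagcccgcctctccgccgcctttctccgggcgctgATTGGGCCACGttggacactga
Ppp1r15a, chr7:45526269-45526318, minus strand: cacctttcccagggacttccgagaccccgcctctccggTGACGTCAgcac
The Ddit3 and Xbp1 windows held no exact match to the 5 longer motifs, and Xbp1 no CCAAT box either. In Ddit3 the CCAAT box, read in reverse, is followed after 9 bases by GCACG. That is 1 base from the CCACG of the ER stress response element, so the exact search did not count it. The Trib3 match lay 15 to 22 bases into the transcribed part. A match describes letters in a window and no binding was measured.

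The arrays carried a microglial profile. Of 12 measured microglia and macrophage markers, 11 lay above the median probe (Cx3cr1 did not), against 0 of 6 fibroblast, 1 of 5 astrocyte, 2 of 5 neuron, 4 of 5 oligodendrocyte, 4 of 6 endothelial and 3 of 5 lymphocyte markers. The summed normalized intensity of the microglial markers was 108336 to 113118 in controls, 114346 to 118027 at the lower dose and 166540 to 187476 at the higher dose. There 4 of the 12 passed the test, counted in either direction, against 11.8% of named genes. A sum weighs the brightest markers most, so it does not show that the set rose as a whole. Other sums also lay apart from controls at the higher dose. The endothelial sum was lower (3049 to 3383, against 3671 to 3678 in controls). The lymphocyte sum (1094 to 1200, against 892 to 977) and the neuron sum (913 to 922, against 859 to 871) were higher. At the lower dose these sums lay apart from controls too. There the endothelial sum was higher (4291.6 to 4704.5), the lymphocyte sum lower (756 to 839) and the neuron sum higher (987 to 1010). In these sets 0 markers passed at the higher dose. The part of such shifts in the results was not tested. Over the log2 values of brighter probes, Pearson's r was 0.9894 between the higher-dose arrays and 0.9287 to 0.9406 between them and the other 4. Change at the higher dose followed the genomic span of genes, at Spearman's rho = −0.33 across 10269 brighter genes, which are not independent replicates. Of the 10 members, 9 had spans below the median of 21.5 kb. In bulk RNA, fewer cells of a kind and less RNA per cell cannot be told apart.

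At the higher dose 1 of the 10 genes rose and 1 fell relative to control. Ddit3, the pro-apoptotic transcription factor CHOP, rose 2.09-fold, and Xbp1, the transcription factor of the IRE1 branch, fell 1.83-fold. The amino acid enzyme Asns and the degradation factor Edem1 had the next largest values, both negative, and did not pass. Of all 26423 probes, 5.55% rose and 5.06% fell in this comparison (10.6% in either direction), so 2 of 10 lies near the background. The median log2 change was −0.22 over the 10 genes and −0.01 over all probes. At the lower dose 0 of the 10 passed in limma, against 0.0114% of all probes, and 1 (Sesn2) had an unadjusted p under 0.05. Of all probes, 6.36% had one.

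**Figure D1:**
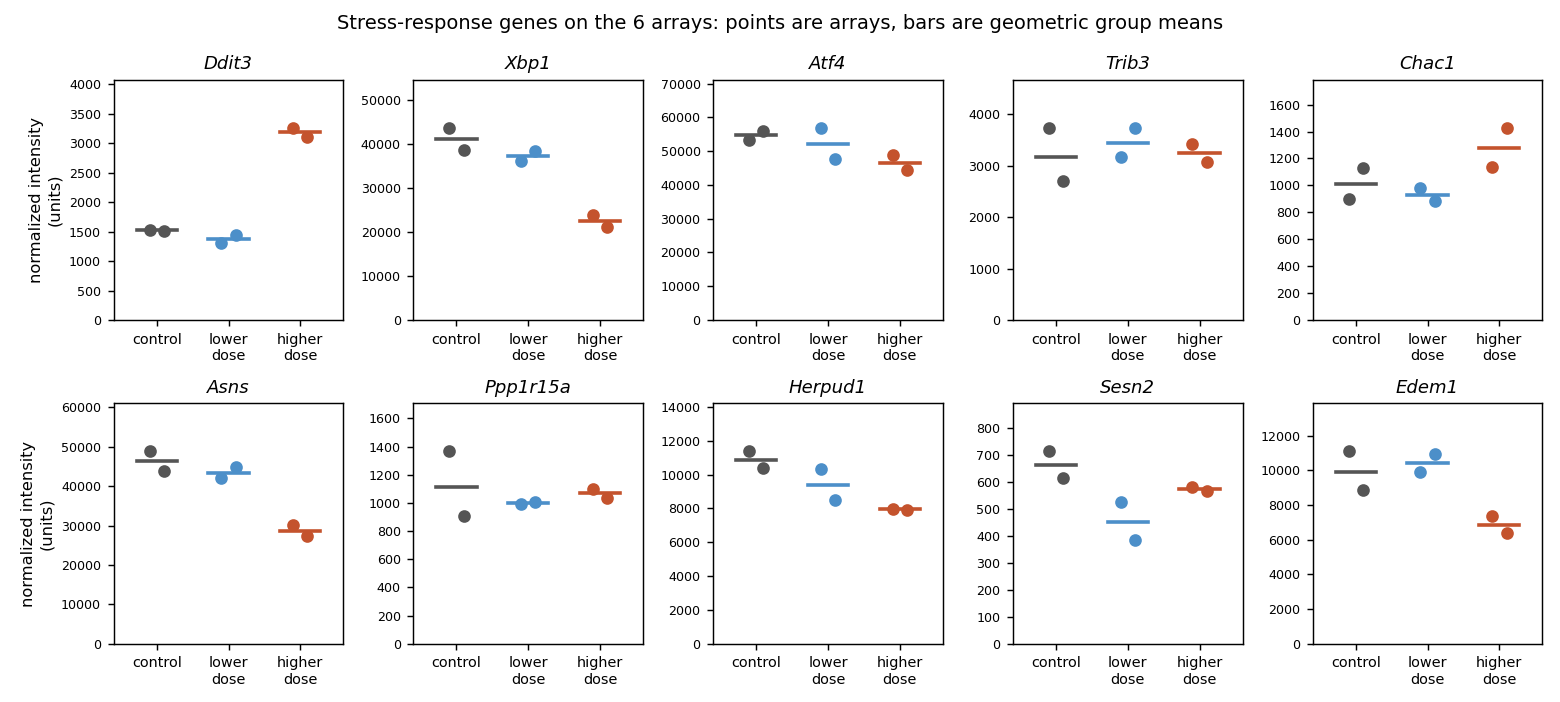
Quantile-normalized intensity (units, linear axes from 0) of each of the 10 genes on the 6 arrays; points are arrays and bars are geometric means of the 2 arrays in a group. The higher-dose Ddit3 points (3261 and 3103 units) sit far above the other 4, and those of Xbp1 (23826 and 21273 units) below them.

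Ddit3 encodes CHOP, a basic leucine zipper factor raised late in both responses and known for promoting cell death under lasting stress. Its normalized intensity was 1533 and 1517 units in the controls, 1315 and 1449 at the lower dose and 3261 and 3103 at the higher dose. The higher-dose arrays stood apart from all the others, and those of the lower dose lay just below the controls. Ddit3 rose 2.09-fold at the higher dose (a log2 change of 1.06, with an SE of 0.15 from 2 arrays in each group, adjusted p = 0.0231) and was 2.30-fold higher than at the lower dose (1.20 ± 0.15, adjusted p = 0.0186). The lower dose differed from control by −0.14 ± 0.15 (adjusted p = 0.847). The rise was also present in values as deposited, at 1427 and 1560 units in controls and 3216 and 2847 at the higher dose. Without control replicate 1 or 2 or higher-dose replicate 1 or 2 the log2 change against control was 1.07, 1.05, 1.03 and 1.10 and the adjusted p 0.112, 0.103, 0.132 and 0.125, so the call was lost each time. The call against the lower dose was lost without any 1 array (adjusted p 0.0525 to 0.115, log2 change 1.14 to 1.27). After each array's trend with gene span was removed, the change against control was 0.78.

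Xbp1 encodes the transcription factor whose mRNA IRE1 splices into its active form. The position of its single probe relative to the spliced stretch is not known here, so which form the values reflect was not tested. Its normalized intensity was 43769 and 38620 units in the controls, 36127 and 38386 at the lower dose and 23826 and 21273 at the higher dose. Both higher-dose arrays lay below the other 4, and the lower-dose arrays lay a little below the controls. Xbp1 fell 1.83-fold at the higher dose (−0.87 ± 0.16, adjusted p = 0.0356) and stood 1.65-fold below the lower dose (−0.73 ± 0.16, adjusted p = 0.0454). The size of the fall depended on scaling. Against the lower dose the log2 change ran from −1.04 to −0.26 over 16 other settings, with an adjusted p up to 0.359. As deposited, Xbp1 read 38766 and 35724 units in controls and 28797 and 23837 at the higher dose, a log2 change of −0.51 (adjusted p = 0.157), and with arrays scaled to equal medians it was −0.58 (adjusted p = 0.089). Over the brightest 1% of probes, 265 in number, to which Xbp1, Asns and Atf4 belong, the median change at the higher dose was −0.09 after quantile normalization and 0.20 as deposited. Relative to these medians Xbp1 was low on both scales. Leaving out any 1 of the 6 arrays ended the call against control (adjusted p 0.0594 to 0.172), with log2 changes from −0.96 to −0.78, and the call against the lower dose (0.0793 to 0.197, log2 changes −0.81 to −0.64).

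Atf4, the central factor of the integrated stress response, differed little between groups. It read 53378 and 55995 units in controls, 56922 and 47760 at the lower dose and 48793 and 44385 at the higher dose. The lower-dose arrays enclosed both controls, and the higher-dose arrays lay below the controls. The change at the higher dose was −0.23 ± 0.17 (adjusted p = 0.418, 95% interval −0.66 to 0.19), and on values as deposited its sign turned, to 0.07. Its deposited values of 47138 to 56134 units lay near the top of the array's range, whose highest value was 65489 units.

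**Figure D2:**
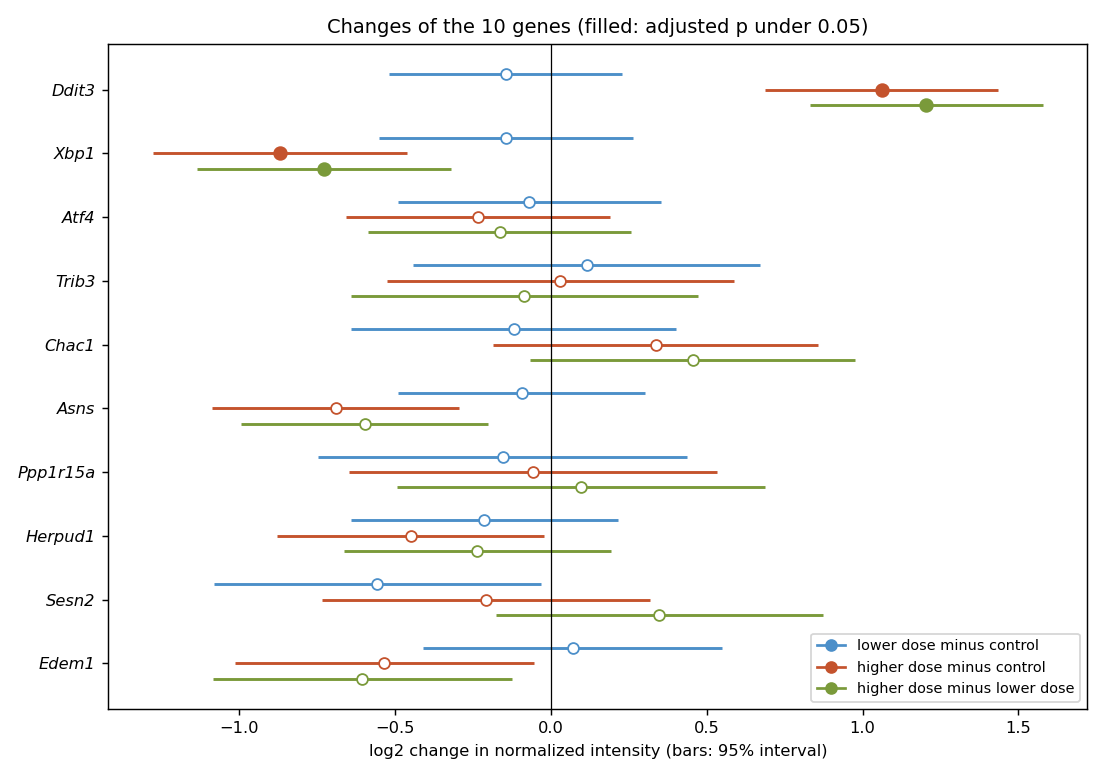
Log2 change in normalized intensity of the 10 genes in 3 comparisons, with 95% intervals from the limma fit; filled points have an adjusted p under 0.05. Ddit3 (1.06 and 1.20) and Xbp1 (−0.87 and −0.73) are filled in both comparisons of the higher dose, and no point is filled for the lower dose against control.

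The feedback genes of the response did not pass in any comparison. Ppp1r15a encodes GADD34, which guides a phosphatase to eIF2 and so ends the translational block. Its intensity was 1365 and 904 units in controls, 990 and 1006 at the lower dose and 1101 and 1035 at the higher dose, with both treated groups inside the range of the controls. The higher-dose change was −0.06 ± 0.23 (adjusted p = 0.901), with a 95% interval from −0.65 to 0.53. Trib3, a pseudokinase that restrains ATF4 and CHOP, read 3737 and 2695 units in controls, 3174 and 3725 at the lower dose and 3417 and 3075 at the higher dose. All 4 treated arrays lay between the controls. The higher-dose change of Trib3 was 0.03 ± 0.22 (adjusted p = 0.947), with a 95% interval from −0.53 to 0.59, and its sign turned with equal medians (−0.07) and after removal of the span trend (−0.20).

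Among the genes of amino acid and redox supply, the members did not move alike. Asns encodes asparagine synthetase, a classical ATF4 target. It read 48793 and 43956 units in controls, 41960 and 44919 at the lower dose and 30199 and 27293 at the higher dose. Both higher-dose arrays were lower than every other array, but the change of −0.69 ± 0.16 missed the threshold (adjusted p = 0.0543), as did that against the lower dose (−0.60 ± 0.16, adjusted p = 0.0649). It passed with log2(value + 16) (adjusted p = 0.0211 against control), with a trended prior (0.0131) and among probes above the median intensity (0.00606), and stood at −0.35 on values as deposited (adjusted p = 0.301). Chac1 encodes an enzyme that degrades glutathione and lies downstream of ATF4 and CHOP. Its intensity was 902 and 1128 units in controls, 980 and 881 at the lower dose and 1137 and 1428 at the higher dose. The higher-dose arrays were the highest of the 6, by a small margin over 1 control. The change was 0.34 ± 0.20 at the higher dose (adjusted p = 0.347), and −0.04 once the span trend was removed. Sesn2, a stress-induced inhibitor of mTORC1 signalling and leucine sensor, read 712 and 613 units in controls, 524 and 386 at the lower dose and 580 and 565 at the higher dose. All treated arrays lay below both controls, with the lower-dose arrays the lowest. Its lower-dose change of −0.56 ± 0.21 had an unadjusted p of 0.0416 and did not pass (adjusted p = 0.764). The higher-dose value was −0.21 ± 0.21 (adjusted p = 0.563).

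The members of endoplasmic reticulum associated degradation had lower values at the higher dose without passing. Herpud1 encodes a membrane protein that organises the degradation complex, and it read 11364 and 10380 units in controls, 10324 and 8504 at the lower dose and 7993 and 7923 at the higher dose. The groups did not overlap, in the order control, lower dose, higher dose. The changes from control were −0.21 ± 0.17 (adjusted p = 0.814) and −0.45 ± 0.17 (adjusted p = 0.157). Edem1, a lectin-like factor that takes misfolded glycoproteins to degradation and a target of XBP1, read 11097 and 8862 units in controls, 9921 and 10931 at the lower dose and 7367 and 6372 at the higher dose. Control and lower-dose arrays of Edem1 overlapped, and the higher-dose arrays lay below them. Its change was −0.53 ± 0.19 against control (adjusted p = 0.138) and −0.60 ± 0.19 against the lower dose (adjusted p = 0.0957), and among probes above the median intensity both passed (adjusted p = 0.0317 and 0.0164).

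Separation of arrays was common on this platform. Between control and higher dose, 2 of the 10 genes lay above and 6 below without overlap, while 28.8% of all probes lay above and 31.3% below (60.1% in either direction). Between control and lower dose 4 of 10 did not overlap, all below, against 16.6% of all probes below and 35% in either direction. Between the doses 8 of 10 did not overlap, 4 in each direction, against 28.5% of all probes above and 30.7% below (59.2% in either direction). In that last comparison 1 of 10 genes passed upward and 1 downward, against 6.78% and 6.95% of all probes (13.7% in either direction). The comparisons of the higher dose share its arrays, and both comparisons with control share the control arrays.

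**Figure D3:**
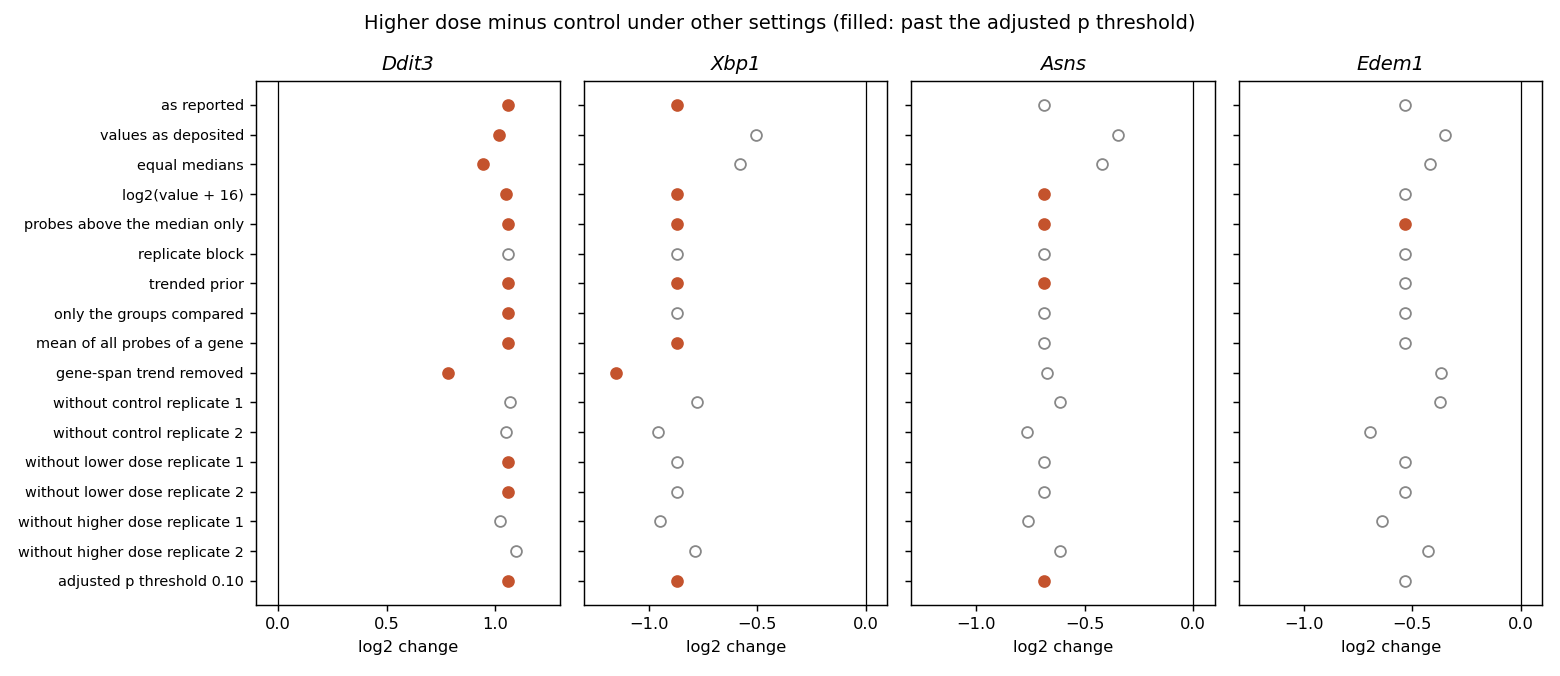
Log2 change at the higher dose against control for Ddit3, Xbp1, Asns and Edem1 as reported and under 16 other settings; filled points pass the adjusted p threshold of the setting. Ddit3 stays between 0.78 and 1.10 and Xbp1 between −1.15 and −0.51, with calls at 11 and 6 of the other settings at an adjusted p of 0.05.

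The genes most like the called members were sought over the 6 arrays among 10286 other named genes above the median intensity, by the root mean square difference of log2 deviations from the control mean. For Ddit3 they were Phf11d (0.03), Ptprj (0.05) and Ift27 (0.06), whose higher-dose changes were 1.07, 1.06 and 1.03. For Xbp1 they were Setdb1 (0.03), Smchd1 (0.04) and Ermard (0.04), whose higher-dose changes were −0.82, −0.85 and −0.84. With 6 arrays in 3 groups, any gene with steps of the same size ranks as alike.

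The rest of both responses was read from 10 lists holding 124 other genes, of which 118 were measured. At the higher dose 9 rose and 17 fell, and the median log2 change was −0.33. Of all named genes, 6.37% rose and 5.39% fell (11.8% in either direction). These shares cover dim and bright genes alike, and the list genes were not matched to them by intensity. At the lower dose 0 of the 118 passed in limma, against 0.0169% of named genes, 9 had an unadjusted p under 0.05 and the median was 0.02. The count of 26 at the higher dose was 15 on values as deposited, with 7 higher and 8 lower, so the excess of falls among the calls was not seen on that scale; the median there was −0.30. It became 0 without control replicate 1 or 2 or higher-dose replicate 1 or 2, when 0.0189% to 0.106% of all probes passed, and 16 without lower-dose replicate 1 or 2. The brightest probe stood for each gene. Of 22 further probes of these genes, 0 passed upward and 3 downward, each for a gene whose brighter probe had a positive value and did not pass: Impact, a GCN2 inhibitor (−2.28 ± 0.45, adjusted p = 0.0404, against 0.09 for the brighter probe), Bcl2, an inhibitor of apoptosis (−1.13 ± 0.20, 0.0324, against 0.12), and Erlec1, a lectin of degradation (−0.81 ± 0.17, 0.0486, against 0.28). These probes disagree, and the counts by list leave out the dimmer ones.

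**Figure D4:**
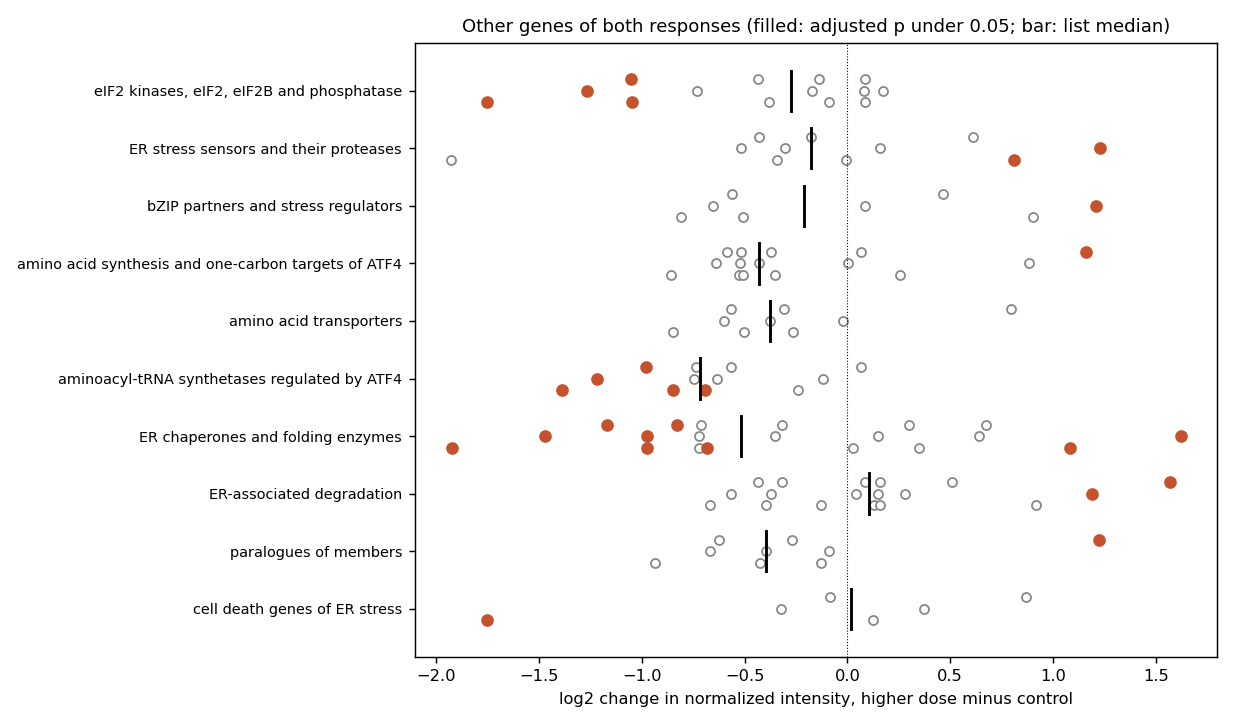
Log2 change at the higher dose against control for each measured gene of the 10 lists (some genes belong to 2); filled points have an adjusted p under 0.05 and black bars are list medians. The filled points of the aminoacyl-tRNA synthetase list all lie below 0, and the chaperone list has filled points on both sides.

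The machinery of eIF2 itself fell in part. Of 14 genes, 4 fell and 0 rose at the higher dose (median −0.28), against 5.39% and 6.37% of named genes. All 3 subunits of eIF2 fell: the α subunit Eif2s1, whose phosphorylation defines the response, went from 497 and 682 units in controls to 168 and 178 (3.37-fold, −1.75 ± 0.21, adjusted p = 0.0204), and Eif2s2 (−1.27 ± 0.16, adjusted p = 0.0204) and Eif2s3x (−1.05 ± 0.20, adjusted p = 0.0364) followed. The catalytic subunit of its exchange factor, Eif2b5, fell as well (−1.05 ± 0.22, adjusted p = 0.0441). The 4 kinases did not pass against control: PERK (Eif2ak3) stood at −0.73 ± 0.22 (adjusted p = 0.1), GCN2 (Eif2ak4) at −0.38 ± 0.16 (0.199), the haem-regulated Eif2ak1 at −0.44 ± 0.24 (0.31) and PKR (Eif2ak2) at 0.08 ± 0.16 (0.771). Eif2s1, Eif2s2 and Eif2b5 also passed on values as deposited, and Eif2s3x did not (−0.76, adjusted p = 0.0972). With equal medians Eif2b5 missed the threshold (−1.15, adjusted p = 0.0517).

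The aminoacyl-tRNA synthetases, which charge tRNAs and include targets of ATF4, had the lowest list median, −0.71 over 12 genes including the tRNA exporter Xpot. Of these, 5 fell and 0 rose, against 5.39% and 6.37% of named genes. Gars went from 27371 and 26696 units in controls to 9957 and 10715 (2.62-fold lower, −1.39 ± 0.16, adjusted p = 0.0204). Mars1 (−1.22 ± 0.24, adjusted p = 0.04), Nars (−0.98 ± 0.15, 0.0259), Tars (−0.85 ± 0.16, 0.0364) and Xpot (−0.69 ± 0.15, 0.0499) also fell. On values as deposited the median was −0.51 and 1 gene, Gars, passed. In the list of amino acid synthesis and other ATF4 targets, 1 of 15 rose and 0 fell (median −0.43), which is near the shares of named genes. The riser was Gdf15, a stress-induced cytokine, which went from 6586 and 5925 units to 13705 and 14198 (2.23-fold, 1.16 ± 0.15, adjusted p = 0.0206). Of 9 amino acid transporters 0 passed in limma (median −0.38). At an unadjusted p under 0.05 there were 3 of the 9, near the 29.1% of all probes that had one.

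Chaperones and folding enzymes of the endoplasmic reticulum went both ways, with 7 of 20 lower and 2 higher (median −0.52). Among named genes 5.39% were lower and 6.37% higher. On values as deposited 3 were lower (Pdia4, Ero1a and Txndc5) and the same 2 higher, and with the span trend removed 5 were lower and 1, Fkbp2, higher. Hspa5, the master chaperone BiP, went from 28265 and 25079 units in controls to 14797 and 15189 (1.78-fold lower, −0.83 ± 0.17, adjusted p = 0.0459), and the value was −0.51 as deposited (adjusted p = 0.149). The disulfide isomerase Pdia4 went from 4182 and 4052 units to 1073 and 1095 (3.80-fold lower, −1.92 ± 0.14, adjusted p = 0.0163). The oxidases and isomerases Ero1a (−1.17 ± 0.18), P4hb (−0.98 ± 0.17), Txndc5 (−0.97 ± 0.18) and Ero1b (−0.68 ± 0.14) fell too, with adjusted p between 0.0271 and 0.0465, as did Manf, whose probe read only 8.5 to 27 units in controls and higher-dose arrays. The prolyl isomerases Fkbp2 (3.08-fold, 1.62 ± 0.23, adjusted p = 0.0236) and Ppib (2.12-fold, 1.08 ± 0.19, adjusted p = 0.0311) rose. Hsp90b1 (−0.71 ± 0.17, adjusted p = 0.0624) and the XBP1 target Dnajb9 (0.35 ± 0.22, adjusted p = 0.36) did not pass.

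Among sensors and regulators, the membrane-bound factors Creb3l1 (1.23 ± 0.15, adjusted p = 0.0204) and Creb3 (0.81 ± 0.16, adjusted p = 0.0427) rose, 2 of 11 genes with 0 lower (list median −0.18, and 0.05 after the span trend was removed). Named genes were higher in 6.37% and lower in 5.39%. Beside these shares, 1 or 2 risers in the small lists of this paragraph are not read as results about the lists. Creb3 lost its call as deposited (adjusted p = 0.0695), with equal medians (0.086) and with the span trend removed, where it was 0.49 (0.127). Atf6 stood at −0.52 ± 0.16 (adjusted p = 0.11), and the IRE1 gene Ern1, near the floor of detection at 2 to 40 units, at −1.93 ± 1.48 (adjusted p = 0.452). Of 8 leucine zipper partners and stress regulators 1 rose, the chromatin protein gene Nupr1 (1.21 ± 0.22, adjusted p = 0.0333), and 0 fell. Nupr1 did not pass as deposited (1.12, adjusted p = 0.0707) or with the span trend removed (0.79, adjusted p = 0.0794). Atf3 (0.47 ± 0.25, adjusted p = 0.298), Atf5 (0.90 ± 0.33, 0.148) and Cebpb (−0.51 ± 0.20, 0.169) did not pass. In degradation, 2 of 18 rose and 0 fell (median 0.11, and −0.02 with equal medians): Sel1l, the scaffold of the HRD1 ligase, went from 643 and 651 units to 1990 and 1850 (2.97-fold, 1.57 ± 0.14, adjusted p = 0.0185), and Selenos rose 2.28-fold (1.19 ± 0.14, adjusted p = 0.0204).

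Of the paralogues of members, Chac2, the close relative of Chac1, rose 2.34-fold, from 377 and 370 units to 906 and 842 (1.23 ± 0.15, adjusted p = 0.0204). The other 8 did not pass: Sesn1 was nearest (−0.94 ± 0.21, adjusted p = 0.0517), then Herpud2 (−0.67 ± 0.16, 0.0581), and Trib1, Trib2, Sesn3, Ppp1r15b, Edem2 and Edem3 lay between −0.63 and −0.09. Of 6 cell death genes of stress, Pmaip1, which encodes the BH3-only protein NOXA, fell 3.37-fold, from 6440 and 6760 units to 2078 and 1844 (−1.75 ± 0.16, adjusted p = 0.0186). Of further BH3-only genes in that list, Bbc3 stood at 0.37 (adjusted p = 0.273) and Bcl2l11 at −0.32 (adjusted p = 0.29), and neither passed. With 6.37% of named genes higher and 5.39% lower, 1 gene in a list this small is not read as a result about the list.

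Set against the lower dose, 9 of the 118 genes passed upward and 26 downward, against 7.74% and 7.5% of named genes (15.2% in either direction). Some of them passed against the lower dose and not against control, with adjusted p from 0.0226 to 0.05 (Hsp90b1, just under the threshold). Lower were GCN2 (Eif2ak4, −0.78), the transporter Slc38a2 (−0.93), the antioxidant factor Nfe2l2 (−0.86), the ATF6 protease Mbtps1 (−0.67), Hsp90b1 (−0.74) and Sesn1 (−1.04). Cbs (−1.14), Lars (−0.77), Dnajc10 (−0.80), Aldh1l2 (−0.71) and Herpud2 (−0.69) were lower as well. Ubxn4 (0.78) alone was higher. Passing in one comparison and not in the other does not show that the comparisons differ. The count of 35 became 0 in each of the 6 fits without 1 array.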

How the data were processed

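Cy5-labelled cDNA was hybridised to single-colour Phalanx mouse OneArrays, per the labels. The deposited values are background-subtracted spot intensity on a linear scale. The submitters' processing notes name RMA, yet array medians differ (125 to 170 units), so values were treated as not normalized. They were quantile-normalized, floored at 1 and log2-transformed, and all 6 arrays entered 1 fit (limma 3.58.1, R 4.3.3: lmFit, then eBayes; 3 residual degrees of freedom, two-sided, Benjamini-Hochberg over 26423 probes, threshold 0.05). The fit was tested on simulated data with independent noise on already normalized values. That test does not bear on the normalization or on the calls lost without 1 array. The ± values are standard errors from the fit. The number of arrays limits precision. Platform symbols were updated by exact match (18213 probes) or unique synonym (2126) in a RefSeq table (GRCm38.p6), and 38 were kept. The annotation is old and leaves 6046 probes unnamed here. The brightest probe stood for a gene. Named were all members, list genes past the threshold in a comparison of the higher dose, 12 defining genes and the paralogues of members. Genes named only between the doses, Bbc3 and Bcl2l11 were added after their values were seen. Members and lists were chosen with earlier results of these data known. Figures used Python 3.11.15 and matplotlib 3.10.9. Alternatives are in the closing section.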

Additional observations from a re-analysis of the deposited data

How the results depend on the processing

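With 2 arrays per group and 3 residual degrees of freedom, calls near the threshold move with the setting. Of the 10 members, 2 passed at the higher dose against control. The count was 1 on values as deposited, with equal medians or with only the groups compared, 3 with log2(value + 16), a trended prior or an adjusted p of 0.10, 4 among probes above the median, and 0 to 1 without 1 array. Between the doses it was 2 as reported, 1 as deposited or with equal medians, 4 with log2(value + 16), a trended prior, an adjusted p of 0.10 or probes above the median, 0 with only the groups compared and 0 without any 1 array. Of the 118 other genes, 26 passed at the higher dose. The count was 15 as deposited, 41 with log2(value + 16), 52 among probes above the median, 46 with a trended prior, 16 with only the groups compared, 42 at an adjusted p of 0.10 and 0 to 16 without 1 array. Between the doses 35 passed, against 59 among probes above the median, 53 with a trended prior, 0 with only the groups compared and 0 without any 1 array. At the lower dose 0 members and 0 other genes passed in limma under all 16 alternatives, with 1 and 9 at an unadjusted p under 0.05 in the reported fit. The fits without 1 array or with only the groups compared have fewer samples, and the causes of the other shifts were not tested. In the reported fit 10.6% of all probes passed at the higher dose against control and 13.7% between the doses. That share changes with the setting too, so a higher or lower count is not by itself a result about these genes.

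The replicate numbers are shared by the groups, but the deviations of same-numbered arrays correlated at 0.0326 (control and lower dose), 0.313 (control and higher dose) and −0.226 (both doses), so the numbers were not taken to pair arrays. The fit with the replicate number as a block has fewer residual degrees of freedom. In it 0 members and 0 other genes passed against control, and 1 member and 16 other genes between the doses.

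Values of members that did not pass turned sign in places. Against control, values as deposited gave at the lower dose 0.028 for Ddit3, 0.036 for Atf4, 0.044 for Chac1, 0.0038 for Asns and 0.0084 for Ppp1r15a, and equal medians gave −0.046 for Edem1. At the higher dose Atf4 was 0.071 as deposited, Trib3 −0.073 with equal medians and −0.20 with the gene-span trend removed, and Chac1 −0.035 with that trend removed. Between the doses Atf4 was 0.035 as deposited and 0.21 with equal medians, Ppp1r15a −0.17 as deposited and −0.28 with the span trend removed, and Herpud1 0.0026 with equal medians. Without 1 array, lower-dose values ranged from −0.20 to 0.058 for Atf4, −0.12 to 0.35 for Trib3, −0.28 to 0.043 for Chac1, −0.45 to 0.14 for Ppp1r15a and −0.092 to 0.23 for Edem1, higher-dose values from −0.21 to 0.27 for Trib3 and −0.35 to 0.24 for Ppp1r15a, and Trib3 between the doses from −0.20 to 0.030. Ddit3 and Xbp1 kept their direction at the higher dose under all 16 alternatives in both comparisons.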
